A study of Homo sapiens with 3 samples.

Results

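The genes described here are 10 immediate early transcription factors of the AP-1 and EGR families: FOS, FOSB, FOSL1, FOSL2, JUN, JUNB, JUND, ATF3, EGR1 and EGR3. They were taken by name, and all 10 were found among the 32732 genes present in each of the 3 feature tables. AP-1 is a dimer of basic leucine zipper proteins in which FOS family members need a JUN family partner, while JUN proteins can also pair among themselves. EGR proteins are zinc finger factors. Most of these genes are silent or low in resting cells, switch on within minutes of serum, stress or a second messenger such as cAMP, and make short-lived mRNAs. In fibroblasts they are the classic serum response genes, and in neurons they mark recent activity.

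Single-cell RNA libraries were made at days 0, 3 and 5 of a chemical conversion of human fibroblasts, with 1 library per day. FiN cells, labelled as induced neurons, make up days 3 and 5, BJ cells (an established line of human fibroblasts) make up day 0, and all 3 libraries carry the genotype WT and the treatment label reprogramming. By the labels' protocol the induction medium and the maturation medium that replaced it on day 2 held 10 µM forskolin, which raises cAMP through adenylyl cyclase, and it was removed on day 5. The sources used here do not say whether forskolin had reached the day 0 cells. Day 5 was prepared from dissociated cells and days 0 and 3, by the protocols, from nuclei, so preparation and day cannot be told apart between day 5 and the others. The make-up of the day 0 library, given next, goes against nuclei as at day 3, so the same holds between days 3 and 0.

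After filtering, 16773, 11454 and 9219 cells remained at days 0, 3 and 5, with 246546451, 18743865 and 51708522 unique molecular identifiers (UMIs, single captured transcripts), and the median cell held 14039, 1324 and 4374. The libraries differed in make-up: mitochondrial UMIs took 6.45%, 0.745% and 5.01% of the total at days 0, 3 and 5, ribosomal protein genes took 17.0%, 4.29% and 2.13%, and the nuclear RNA MALAT1 took 3.14%, 21.6% and 7.35%. Fibroblast markers summed to 11236, 8619 and 1373 CPM (UMIs scaled to a library total of 1000000) at days 0, 3 and 5, and neuron markers to 4.56, 30.9 and 2812 CPM. The day 3 label therefore goes against these sums. Of 10 neuron markers, DCX, STMN2 and ELAVL4 had 0 UMIs at day 3, and at day 0 3 also had 0 UMIs. Only SYP reached 10 CPM on either of these days, at 17.9 CPM at day 3 against 0.560 CPM at day 0. By the call defined below, 2 of 10 fibroblast markers were higher and 4 lower at day 3 than at day 0. At most 63 cell barcodes were shared between any pair of libraries. With 1 library per day no test is possible: ranges in parentheses are exact Poisson or binomial 95% intervals that cover counting error only, each comparison is between libraries, and fewer expressing cells and less RNA per cell are told apart only as far as the cell shares below allow.

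Stretches of the promoters are shown because these genes are known for compact promoters that read cAMP and serum signals, and because most of the members were lower together on the later days. Sequences are from RefSeq (GRCh38.p14) and hold the 250 bases before an annotated start of each gene, 5′ to 3′ on the gene's strand. Capitals mark the core of the cAMP response element (TGACG, or CGTCA where it lies on the other strand) and, in EGR1, the CArG boxes bound by serum response factor. Of the 10 members 8 were matched by symbol, all but FOSL1 and EGR3.
FOS, chr14:75278578-75278827, plus strand: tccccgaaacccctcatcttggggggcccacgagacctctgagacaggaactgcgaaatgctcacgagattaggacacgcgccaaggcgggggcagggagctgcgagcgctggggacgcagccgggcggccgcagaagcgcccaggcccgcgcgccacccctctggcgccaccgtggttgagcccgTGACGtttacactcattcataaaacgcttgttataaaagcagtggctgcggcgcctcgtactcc
FOSB, chr19:45467746-45467995, plus strand: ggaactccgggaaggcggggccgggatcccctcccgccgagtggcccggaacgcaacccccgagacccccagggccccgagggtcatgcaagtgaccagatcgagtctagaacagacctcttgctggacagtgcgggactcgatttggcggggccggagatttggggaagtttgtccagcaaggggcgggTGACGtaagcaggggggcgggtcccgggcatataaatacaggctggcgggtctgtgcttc
JUND, chr19:18281623-18281872, minus strand: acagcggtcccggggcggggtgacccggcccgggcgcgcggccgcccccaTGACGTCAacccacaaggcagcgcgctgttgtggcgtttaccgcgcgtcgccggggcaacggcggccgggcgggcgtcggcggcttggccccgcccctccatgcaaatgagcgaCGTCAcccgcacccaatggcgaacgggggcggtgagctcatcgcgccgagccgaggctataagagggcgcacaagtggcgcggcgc
EGR1, chr5:138465229-138465478, plus strand: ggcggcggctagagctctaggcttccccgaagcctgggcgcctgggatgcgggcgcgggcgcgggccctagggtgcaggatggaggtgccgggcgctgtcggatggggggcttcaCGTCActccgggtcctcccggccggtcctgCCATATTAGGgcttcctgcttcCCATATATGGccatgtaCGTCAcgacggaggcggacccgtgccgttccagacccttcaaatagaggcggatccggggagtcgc

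The TGACG core, searched on both strands, lay in this window in 7 of the 8 members, all but ATF3, and in 21.2% of 35116 promoters. For ATF3 2 windows were read, chr1:212565157-212565406 and chr1:212614768-212615017, before different annotated starts. No other part of ATF3 was searched, so a core elsewhere in its promoters is not excluded. In FOS it lies 64 to 60 bases and in FOSB 60 to 56 bases before the start, a nearly equal distance. The full element TGACGTCA, which contains the core on each strand, was found in JUND alone among the members and in 1.65% of promoters. EGR1 had 2 CArG boxes, 105 to 96 and 83 to 74 bases before its start, and 1.16% of promoters had any. The letters TATAAA were found in FOS, FOSB, JUNB and ATF3 and in 10.7% of promoters. They lay 33 to 28, 30 to 25 and 31 to 26 bases before the start in FOS, FOSB and JUNB. In ATF3 they lay 230 to 225 bases before the start, in the window at chr1:212614768 only. The AP-1 site TGANTCA was in no window of the 8 members and in 6.57% of promoters. A match describes letters, not binding, and the serum response element of FOS, known from earlier work, lies further upstream than the window reaches.

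Levels stepped down over the 3 libraries. The 10 genes summed to 1650 CPM at day 0, 431 CPM at day 3 and 82.6 CPM at day 5. A gene was called higher or lower between libraries at a ratio of at least 2 with the larger level at least 10 CPM and separate intervals. At day 3 against day 0, 7 of the 9 members that reached 10 CPM were lower and 0 higher, where 19.1% of the 10431 genes tested were lower and 37.6% higher. At day 5 against day 3, 5 of 6 were lower and 0 higher, where 28.7% of 12623 genes were lower and 36.5% higher. At day 5 against day 0, 9 of 9 were lower and 0 higher, where 26.0% of 12084 genes were lower and 49.1% higher. The day 3 and day 5 comparisons with day 0 share the day 0 library, so they are not independent of each other.

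The members' median log2 ratio was -1.85 at day 3 over day 0, -2.23 at day 5 over day 3 and -4.34 at day 5 over day 0, over all 10. Over all measured genes the medians were 1.36, 0.08 and 1.97 for the same comparisons. These include genes near 0, whose counts were set to 3 UMIs, or 0.0122, 0.160 and 0.0589 CPM at days 0, 3 and 5. The unequal floors raise the ratios of nearly absent genes over day 0. At 10 CPM or more the medians were 0.49, 0.16 and 0.93 over all genes and -1.92, -2.65 and -4.53 over the members. The libraries' totals bear on this. With TMM scaling the median of the genes at 10 CPM or more moved to -0.86 at day 3 over day 0, against 0.49 with plain totals, and the share of higher among called genes moved to 23.8%, against 66.3%. At day 5 over day 0 that share moved to 43.1%, against 65.4%. Under TMM scaling 8, 4 and 9 members were lower at day 3 over day 0, day 5 over day 3 and day 5 over day 0, and 0 were higher. Of all genes 4863, 3155 and 5233 were then lower, against 1996, 3627 and 3142 with plain totals. Those higher were 1519, 4387 and 3969, against 3927, 4605 and 5929. The number of genes at 10 CPM or more under TMM was not kept, so no share of all genes stands beside these member counts. The shares given above hold for plain totals only.

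**Figure D1:**
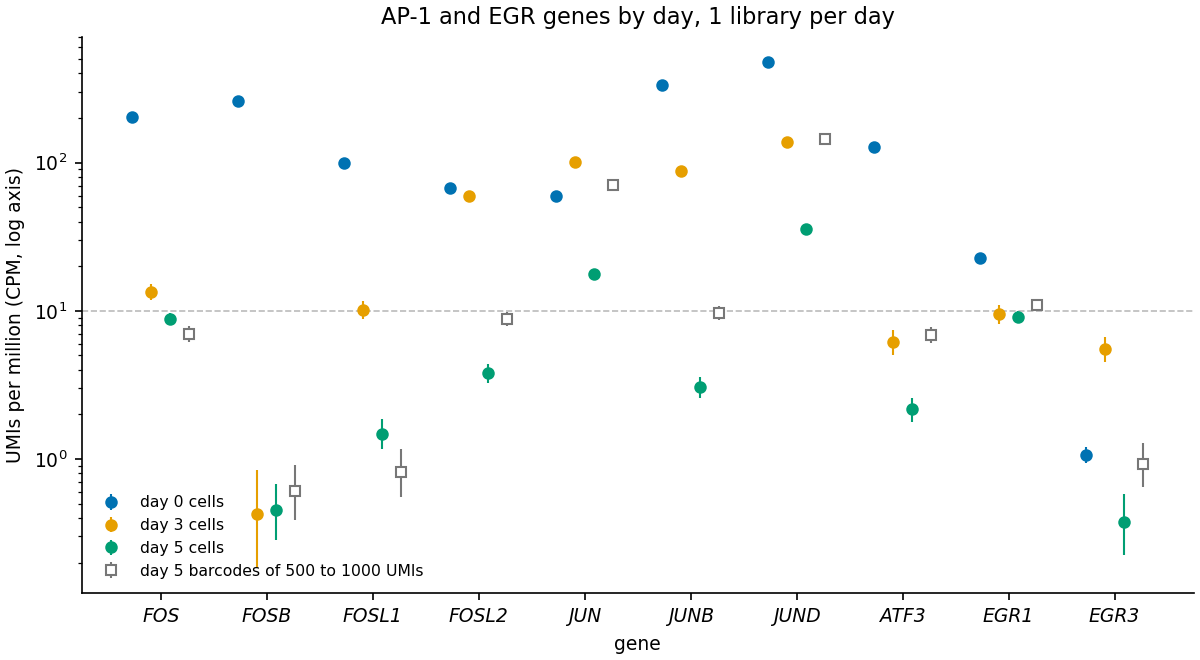
Level of each gene in CPM on a log axis, in the cells of days 0, 3 and 5 (filled circles) and in day 5 barcodes of 500 to 1000 UMIs (open squares), with 1 library per day and bars for exact Poisson 95% intervals. The dashed line marks 10 CPM. FOSB stands at 262 CPM at day 0 and under 1 CPM at days 3 and 5, while JUN peaks at day 3 on this scale, an order that TMM scaling turns round.

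In the FOS family, the subunits FOS and FOSB, which carry strong activation domains, were the most reduced at day 3. FOS (chr14:75278774-75282230 in GENCODE 29 on GRCh38, plus strand) stood at 203 CPM (201 to 205) at day 0, 13.4 CPM (11.8 to 15.2) at day 3 and 8.80 CPM (8.0 to 9.65) at day 5. It was 15.1-fold lower (13.4 to 17.2) at day 3 than at day 0, and its further difference at day 5 from day 3 was under the 2-fold limit. FOSB (chr19:45467995-45475179, plus strand), a close relative of FOS whose truncated isoform builds up in stimulated neurons, had 64523 UMIs at day 0, or 262 CPM (260 to 264). It had 8 UMIs at day 3, or 0.428 CPM (0.185 to 0.842), and 23 UMIs at day 5, or 0.452 CPM (0.286 to 0.678). FOSB was thus 612-fold lower (311 to 1418) at day 3 than at day 0, the largest ratio among the members, and days 3 and 5 could not be told apart at this depth.

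The other FOS family members, which lack a strong activation domain, differed from each other at day 3. FOSL1 (Fra-1; chr11:65892049-65900573, minus strand), tied to migration and matrix genes in fibroblasts, stood at 100 CPM (99.2 to 102) at day 0, 10.2 CPM (8.76 to 11.7) at day 3 and 1.47 CPM (1.16 to 1.85) at day 5. It was lower at each step, 9.89-fold (8.57 to 11.5) at day 3 against day 0 and 6.89-fold (5.25 to 9.13) at day 5 against day 3. FOSL2 (Fra-2; chr2:28392448-28417312, plus strand) stood at 67.5 CPM (66.5 to 68.5), 59.4 CPM (56 to 63.0) and 3.79 CPM (3.27 to 4.36) at days 0, 3 and 5. Its log2 ratio at day 3 over day 0 was -0.18 and turned to 0.53 with the mean of per-cell levels and to 0.38 with cells thinned to equal depth, and no setting but the median of ratios or TMM brought it past -1. At day 5 FOSL2 was 15.7-fold lower (13.4 to 18.4) than at day 3.

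The make-up of the FOS family differed from day to day. FOSB gave 41.4%, 0.512% and 3.11% of the family's summed CPM at days 0, 3 and 5, and FOSL2 gave 10.7%, 71.2% and 26.1%. These shares count UMIs and are not divided by length. Per kilobase of the annotated transcript, FOSL2 gave 4.31%, 41.6% and 10.0% of the family and was the leading member at day 3 on that scale too. A UMI stands for a single captured transcript, so the per-kilobase shares are an alternative scale and not shares of transcript numbers. FOS led at day 5, with 60.6% of the family's CPM, out of a family sum of 14.5 CPM against 633 CPM at day 0.

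**Figure D2:**
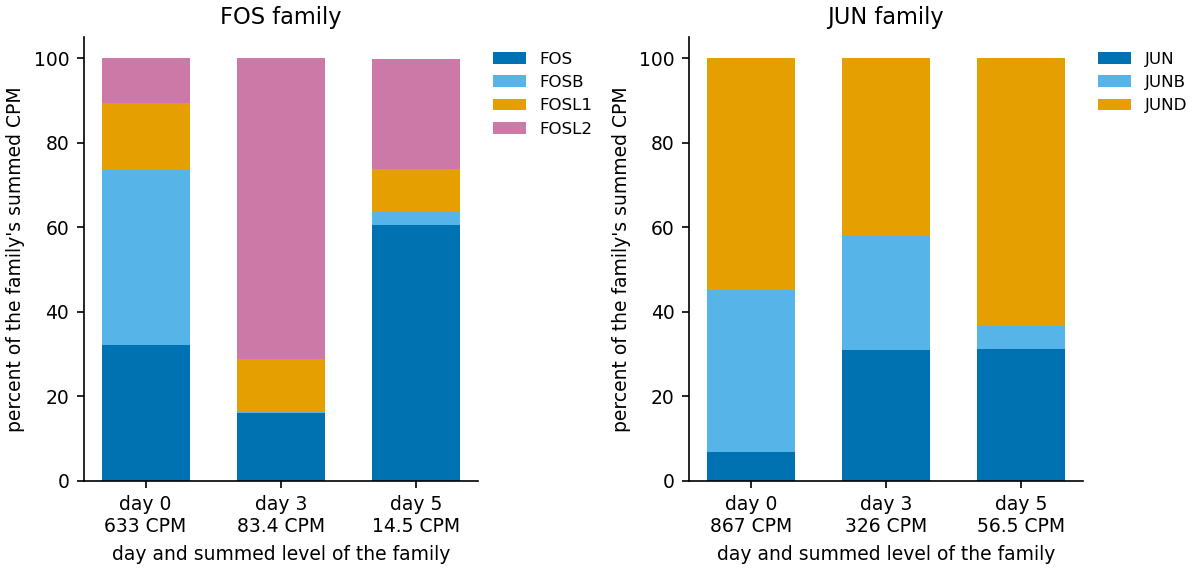
Stacked bars give each gene's percent of the summed CPM of the FOS family (left) and of the JUN family (right) at days 0, 3 and 5, with the summed CPM under each bar; there is 1 library per day and levels are not divided by transcript length. FOSL2 takes 71.2% of the FOS family at day 3, and JUN takes 30.9% of the JUN family at day 3 against 6.84% at day 0.

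In the JUN family the order was different. JUN (chr1:58780788-58784327, minus strand), the partner that JUN kinases phosphorylate, stood at 59.3 CPM (58.3 to 60.2) at day 0, 101 CPM (96.3 to 105) at day 3 and 17.7 CPM (16.5 to 18.9) at day 5. Its log2 ratio at day 3 over day 0 was 0.77 (0.70 to 0.84) with plain totals, 1.32 with the mean of per-cell levels, -0.43 with TMM scaling and -0.40 with the median of ratios, so its direction depends on the scaling. At day 5 JUN was 5.70-fold lower (5.26 to 6.18) than at day 3, a log2 ratio of -2.51 that moved to -3.70 when the profile of day 5 barcodes too small to be cells (free RNA) was subtracted. JUNB (chr19:12791496-12793315, plus strand), often a weaker activator that opposes JUN, stood at 332 CPM (330 to 335), 88.0 CPM (83.8 to 92.4) and 3.06 CPM (2.60 to 3.58) at days 0, 3 and 5. It was 3.78-fold lower (3.60 to 3.97) at day 3 than at day 0. At day 5 it was 28.7-fold lower (24.4 to 34.1) than at day 3, the largest ratio of that comparison, with a log2 ratio of -4.84 that moved to -5.60 with free RNA subtracted.

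JUND (chr19:18279760-18281622, minus strand) is the JUN gene known for steady expression in resting cells. It stood at 475 CPM (472 to 478) at day 0, 138 CPM (132 to 143) at day 3 and 35.7 CPM (34.1 to 37.4) at day 5, the highest member on each day both as UMIs and per kilobase of transcript. At day 3 it was 3.45-fold lower (3.32 to 3.59) than at day 0, close to JUNB. At day 5 it was 3.85-fold lower (3.63 to 4.10) than at day 3, and subtraction of free RNA at day 5 moved this log2 ratio to -3.18, against -1.95. JUN gave 6.84%, 30.9% and 31.3% of the family's CPM at days 0, 3 and 5, while JUNB gave 38.4%, 27.0% and 5.43%.

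ATF3 (chr1:212565334-212620777, plus strand), a stress-induced zipper protein that represses as a homodimer, followed FOS. It stood at 127 CPM (125 to 128) at day 0, 6.15 CPM (5.07 to 7.38) at day 3 and 2.16 CPM (1.78 to 2.60) at day 5, and was 20.6-fold lower (17.1 to 24.9) at day 3 than at day 0. EGR1 (chr5:138465490-138469315, plus strand), the zinc finger factor induced by MAP kinase and serum response factor, stood at 22.7 CPM (22.1 to 23.3), 9.51 CPM (8.17 to 11) and 9.11 CPM (8.30 to 9.98) at days 0, 3 and 5. Its levels at days 5 and 3 could not be told apart, with a ratio of 0.958 (0.804 to 1.14). EGR1 is the 1 member whose day 3 call rests on a ratio near the limit, 2.38-fold lower (2.05 to 2.78) than at day 0, and the mean of per-cell levels ended that call with a log2 ratio of -0.51, against -1.25.

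EGR3 (chr8:22687659-22693302, minus strand), a relative of EGR1 active in neurons and muscle spindles, ran the other way at low level. It stood at 1.06 CPM (0.934 to 1.20) at day 0, 5.51 CPM (4.49 to 6.68; 103 UMIs) at day 3 and 0.373 CPM (0.225 to 0.583; 19 UMIs) at day 5. The day 3 level was 5.20-fold (4.10 to 6.55) that of day 0 and stayed above it under each scaling tried, with a lowest log2 ratio of 1.18, but it lies under the 10 CPM that a call needs, and with a limit of 5 CPM it is called higher. Of the other genes of that family, EGR2 stood at 1.98 CPM at day 3 and 0.207 CPM at day 0, and EGR4 had 0 UMIs at day 3 and 7 at day 0. The corepressor NAB2, which EGR factors themselves induce, stood at 38.5 CPM at day 3 and 56.6 CPM at day 0, and at 4.97 CPM at day 5, 7.76-fold lower than at day 3.

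Across the whole interval, at day 5 against day 0, the ratios covered a wide range. FOSB was 580-fold lower (386 to 914), JUNB 108-fold (92.7 to 128), FOSL1 68.2-fold (54.4 to 86.7) and ATF3 58.6-fold (48.6 to 71.3). FOS, FOSL2 and JUND were 23.1-fold, 17.8-fold and 13.3-fold lower. JUN, at 3.35-fold lower (3.13 to 3.59), and EGR1, at 2.49-fold lower (2.26 to 2.74), differed least of the 9 called. The EGR1 call ended with thinned cells (log2 ratio -0.89) and with the mean of per-cell levels (-0.86), against -1.31.

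Per kilobase the order at day 0 ran from JUND (255 CPM per kilobase) and JUNB (183) through FOS (94.0), FOSB (69.3), ATF3 (62.2) and FOSL1 (60.2) to JUN (16.7), FOSL2 (10.1), EGR1 (7.22) and EGR3 (0.244). As UMIs, FOSB stood above FOS and FOSL2 above JUN. Since a UMI stands for a single captured transcript, the per-kilobase order is an alternative scale and not an order of transcript numbers. At day 3 the counting intervals of the neighbours FOSL1 and EGR1 and of ATF3 and EGR3 overlapped as UMIs, and at day 5 those of EGR1 and FOS, FOSL2 and JUNB, ATF3 and FOSL1, and FOSB and EGR3 did.

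The day 5 library was deposited with all its barcodes, so its cells can be set beside barcodes of 500 to 1000 UMIs, which were not called as cells. JUN stood at 17.7 CPM in cells and 70.8 CPM in those barcodes, and JUND at 35.7 and 145 CPM. In all, 8 of 10 members were lower in cells than in those barcodes, where 42.4% of 11636 genes were. The 2 exceptions were FOS, at 8.80 CPM (8.0 to 9.65) in cells and 6.97 CPM (6.15 to 7.86) in the small barcodes, and FOSL1, at 1.47 CPM (1.16 to 1.85) in cells and 0.818 CPM (0.556 to 1.16) in the small barcodes. Even these 2 were not apart from the smallest barcodes, of 1 to 100 UMIs, where FOS stood at 8.61 CPM (5.93 to 12.1) and FOSL1 at 0.783 CPM (0.161 to 2.29). For the other 8 the day 5 level did not stand above the small barcodes, so expression in cells was not told from background by this measure. The profile of the small barcodes could make up at most 15.7% of the summed cell profile before a gene (TAGLN) went below 0. Subtracting that share left EGR1 at a log2 ratio of -0.12 at day 5 over day 3, against -0.06, and moved ATF3 to -2.26, against -1.51. At day 5 over day 0 it moved JUN to -2.93, against -1.75, JUND to -4.96, against -3.73, JUNB to -7.51, against -6.76, and ATF3 to -6.63, against -5.87. The counts of members lower, 5 and 9, did not change. At days 0 and 3 the files hold no barcodes left uncalled, those from 500 UMIs were kept as cells, and free RNA was not tested.

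The share of cells with a UMI followed the levels. With each cell thinned to 1000 UMIs, FOS was seen in 13.0% (12.5 to 13.6) of 14385 cells at day 0, 1.24% (1.02 to 1.5) of 8455 cells at day 3 and 0.770% (0.602 to 0.970) of 9219 cells at day 5. Without thinning these shares were 51.6%, 2.08% and 4.45%. FOSB was seen in 16.3% (15.7 to 17.0) of thinned cells at day 0 and in 4 and 3 cells at days 3 and 5. JUN was seen in 4.41% (4.08 to 4.76), 9.0% (8.40 to 9.63) and 1.82% (1.56 to 2.12) of thinned cells at days 0, 3 and 5, and in 30%, 13.7% and 8.87% without thinning. The thinned order of JUN at days 0 and 3 thus follows its CPM, and the order without thinning follows the depth of the cells.

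Within day 0 the members were spread unevenly over cells. Among 8955 cells of at least 10000 UMIs, JUND was at 0 in 0.771% of cells, with a median of 4.58 UMIs per 10000 and a 99th percentile of 14.1. JUN was at 0 in 46.7% of them, with a median of 0.267 and a 99th percentile of 7.48, and the 10% of cells with the most JUN held 54.1% of its UMIs. EGR1 was at 0 in 69%, and its top 10% of cells held 61.3% of its UMIs. The same share was 24.1% for JUND, 26.5% for JUNB, 29.6% for FOSB, 36.5% for FOS and 38.6% for ATF3.

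Spread depends on level, so the variance over the mean of thinned counts was set beside all genes with a mean of at least 0.05 UMIs. At day 0 the median of 2627 such genes was 1.04 and the 90th percentile 1.21. FOS stood at 1.43, rank 105 from the highest, JUN at 1.34, JUNB at 1.28, FOSB at 1.25 and ATF3 at 1.24, all above that percentile. JUND at 1.18 and FOSL1 at 1.02, rank 1803, were below it. At day 3, over 3682 genes with a 90th percentile of 1.13, JUN at 1.28 and JUNB at 1.17 were above it, and FOSL2 at 1.08 and JUND at 1.02 were not.

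**Figure D3:**
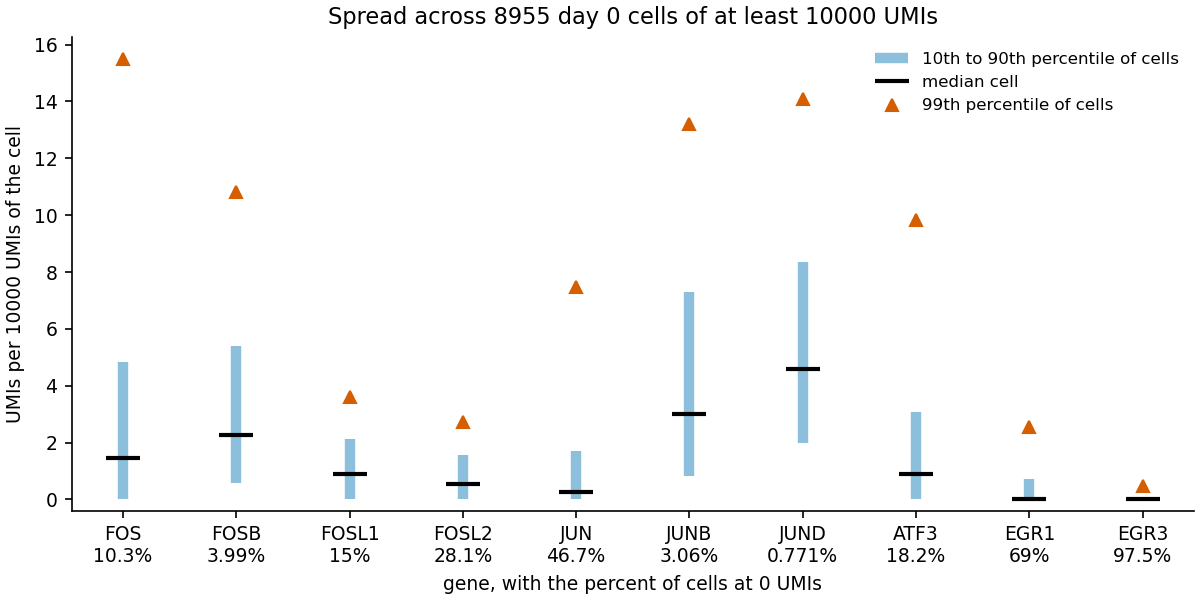
Each gene's UMIs per 10000 UMIs of the cell in 8955 day 0 cells of at least 10000 UMIs (1 library): bars span the 10th to 90th percentile of cells, the dash is the median cell, the triangle the 99th percentile, and the percent of cells at 0 UMIs stands under each gene. FOS and JUN have a 99th percentile of 15.5 and 7.48 over medians of 1.45 and 0.267, while JUND has 14.1 over 4.58.

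Some members were high in the same day 0 cells and some were not. Across the 8955 deep cells, Pearson's r of log levels was 0.46 for FOS with JUN, 0.41 for JUN with ATF3, 0.41 for FOSB with ATF3 and 0.38 for FOS with FOSB. JUND had 0.39 with FOSB and 0.35 with ATF3. JUNB went with JUND (0.34) and FOSB (0.32) but hardly with FOS (0.05) or JUN (0.04). FOSL1 and FOSL2 had no r above 0.16 with any member, and 0.00 with each other. Cells of 1 library share depth and handling, so these values are descriptions with no test, and in thinned cells, where counts are sparse, the highest was 0.17 (FOS with JUN).

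**Figure D4:**
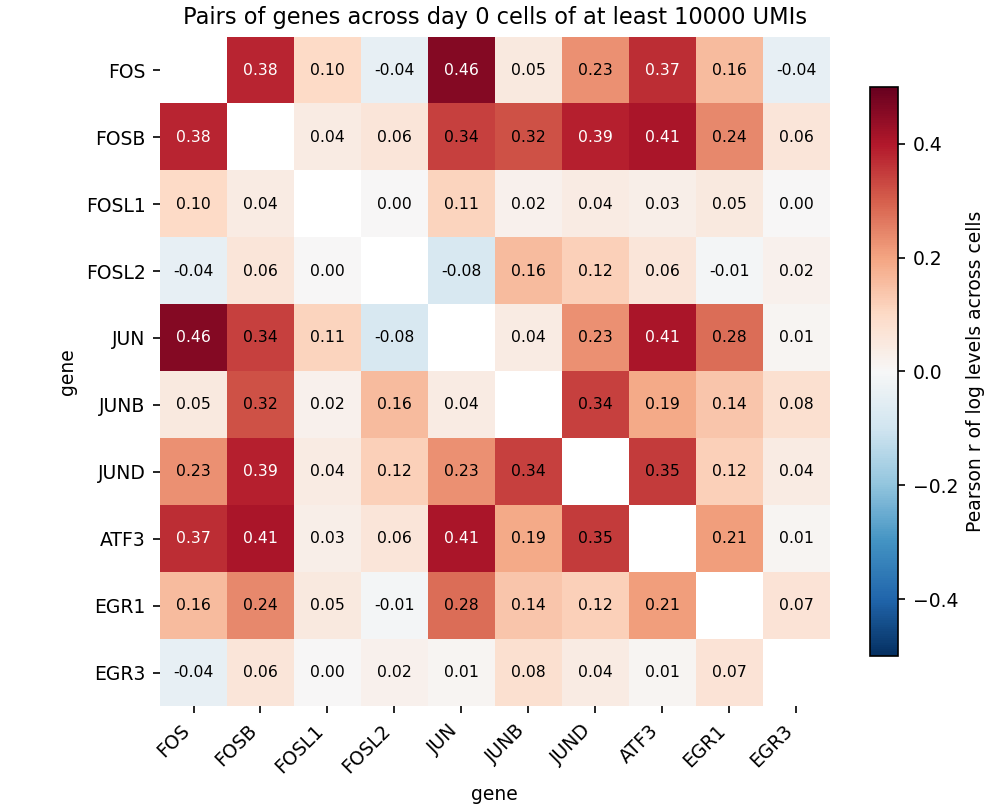
Pearson's r of log levels for each pair of genes across 8955 day 0 cells of at least 10000 UMIs (1 library), red for positive and blue for negative, with the value in each square. Pairs among FOS, FOSB, JUN and ATF3 run from 0.34 to 0.46, JUND with FOSB, ATF3 and JUNB lies in the same range, and no pair with FOSL1 or FOSL2 is above 0.16.

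Other immediate early genes were also uneven in these cells. Of 26 listed genes, the highest with JUN was KLF6 (0.46), a zinc finger factor, followed by PPP1R15A (0.43), the stress-induced phosphatase subunit GADD34, and KLF6 was also highest with FOS (0.44) and ATF3 (0.41). The MAP kinase phosphatase gene DUSP6 had an r of 0.40 with JUN. JUNB was highest with NR4A1 and IER5L (both 0.32), while the orphan receptor gene NR4A2 had -0.25 with JUN and 0.24 with FOSL2. The median r of 11293 genes with any of these members was within 0.01 of 0. The mitochondrial percent of the cell had an r of 0.39 with JUN, 0.28 with ATF3, 0.27 with FOS and -0.03 with JUNB; its part in these relations was not tested. Over all thinned day 0 cells the 5 of 2435 genes most like FOS were MALAT1 (0.22), KLF6 (0.22), NEAT1 (0.20), DUSP1 (0.19) and RND3 (0.18), and those most like FOSL1 were MALAT1 (0.13), NEAT1 (0.10), PLAU (0.09), INHBA (0.08) and FST (0.08). At day 3 those most like JUN, of 3447 genes over 8455 thinned cells, were HES1, HIST3H2A, MEIS2, SRSF7 and NIPBL, each at 0.12, a weak value in sparse counts.

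Each library was clustered alone without the members, the other immediate early genes and the heat shock genes among the clustering genes, and clusters are given by number. In day 0 cluster 2, with 836 cells, the members summed to 3123 CPM, the highest of 8 clusters. FOS stood there at 674 CPM (660 to 689), ATF3 at 393 CPM (382 to 404), JUN at 294 CPM (285 to 304) and EGR1 at 65.4 CPM (61.1 to 70.0). This cluster was 4.98% of the cells and held 26.0% of the JUN UMIs and 17.4% of the FOS UMIs of day 0, but 5.70% of the JUNB and 4.65% of the FOSL2 UMIs. Its genes of largest fold over the other cells included the stress genes HSPA1A, HSPA1B and DDIT3, and its median mitochondrial percent was 10.3. Clusters 1 and 6 had like medians, 10.0 and 11.4, with summed member levels of 543 and 269 CPM. Without the cluster of each library with the highest summed level (65 cells at day 5, 2492 at day 3, 836 at day 0), 7, 4 and 9 members were lower at day 3 over day 0, day 5 over day 3 and day 5 over day 0.

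Low levels at day 0 went with little MALAT1 and with few UMIs per cell. Clusters 0, 1 and 6, each led by RAB13, had a median MALAT1 share under 1% and made up 7350 of 16773 cells (43.8%). Their median cells held 2250, 894 and 1075 UMIs, against 14152 to 29681 in clusters 2 to 5. The summed member levels of clusters 0, 1 and 6 were 234, 543 and 269 CPM, while the other clusters ranged from 1391 to 3123 CPM. In the third of day 0 cells with the least MALAT1 (median 0.110% of UMIs) the members summed to 376 CPM (366 to 387), and in the third with the most to 1816 CPM (1809 to 1823). Split by UMIs per cell into 3 equal groups, low to high, day 0 cells stood at 435, 1770 and 1649 CPM. At day 3 the order by MALAT1 was the reverse, with 723 CPM (696 to 750) in the third with the least MALAT1 and 330 CPM (319 to 343) in the third with the most. Split by UMIs per cell, low to high, day 3 cells stood at 652, 456 and 348 CPM. The parts of nuclear RNA content and of depth per cell in the levels were not tested. With day 0 limited to cells of at least 10000 UMIs, the counts of members lower were 7, 5 and 9, as with all cells.

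At day 3, cluster 1 stood apart. Its 2492 cells (21.8%) had a summed member level of 763 CPM, against 377, 339 and 314 CPM in clusters 0, 2 and 3, with a median MALAT1 share of 8.51% against 20.7% to 22.8% in those 3. JUN stood at 220 CPM (204 to 238) and JUNB at 216 CPM (200 to 233) there, against 57.3 to 82.4 CPM for JUN and 49.7 to 65.7 CPM for JUNB in the other clusters. EGR3 was at 20.3 CPM (15.6 to 25.9), and 61.2% of its day 3 UMIs lay in this cluster. FOS, at 16.7 CPM (12.5 to 21.9), and ATF3, at 5.47 CPM (3.19 to 8.76), overlapped the intervals of cluster 0. The genes of largest fold in this cluster were RORB, GNAO1, FUCA1 and SUV39H1, and 2 of 10 neuron, 1 of 4 cycling and 1 of 4 muscle markers were at least 2-fold higher there than in the other cells.

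At day 5 the summed levels of the 10 clusters of over 100 cells ran between 53.2 and 99.8 CPM, and a cluster of 65 cells stood at 213 CPM on 52 UMIs. The clusters 1, 2, 4 and 7, in which at least 5 of 10 neuron markers were 2-fold higher than in the other cells, had 72.7, 58.5, 53.2 and 91.0 CPM. FOSL1 was concentrated in a small cluster: cluster 8, which had 5.91% of the cells, COL14A1 and COL1A1 among its leading genes and 3 of 10 fibroblast markers at least 2-fold higher, held 44.0% of the FOSL1 UMIs at 12.1 CPM (8.33 to 17.0). In no other cluster did FOSL1 exceed 2.5 CPM. Cluster 6, with 30% of the cells, held 57.0% of the FOSL2, 49.4% of the JUNB and 45.9% of the EGR1 UMIs, all at levels that do not stand above the small barcodes of this library.

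**Figure D5:**
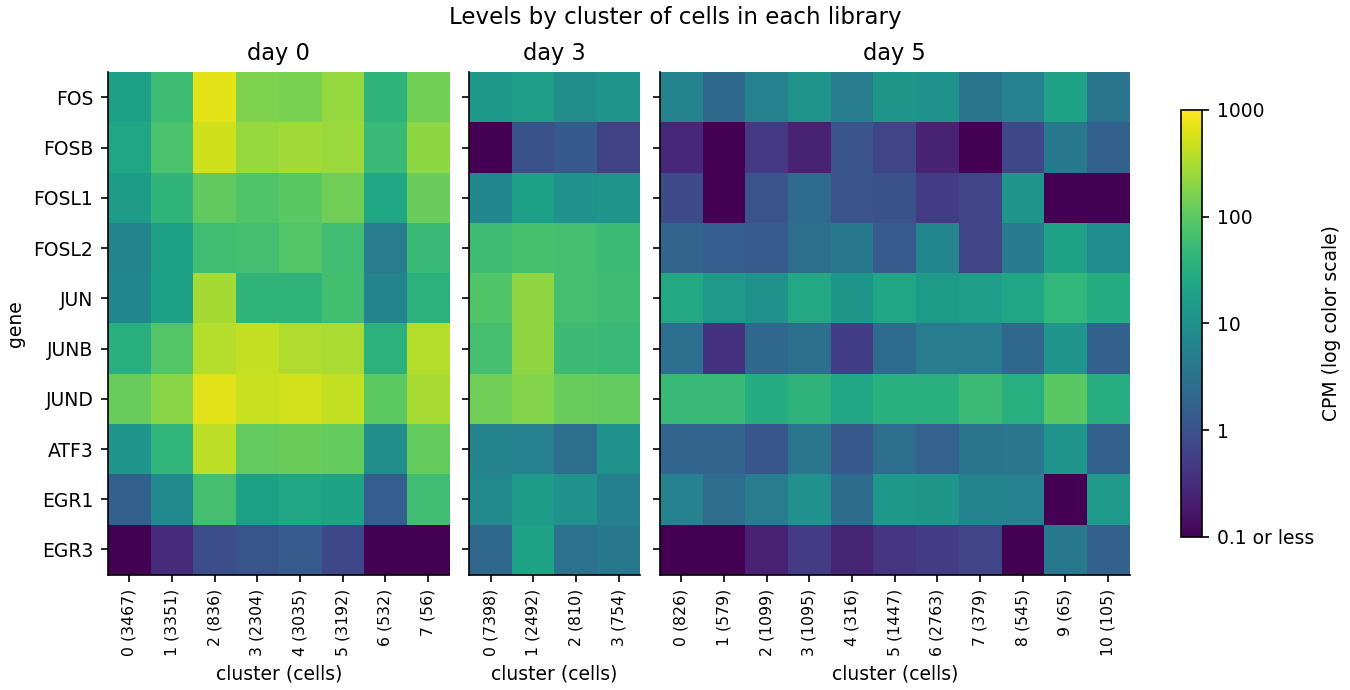
CPM of each gene (rows) in each cluster of cells (columns, with the number of cells) of the day 0, day 3 and day 5 libraries, on a log color scale that ends at 0.1 CPM or less. Day 0 cluster 2 is brightest for FOS, FOSB, JUN and ATF3, day 0 clusters 0, 1 and 6 are dim in nearly every row, and FOSL1 at day 5 stands out in cluster 8 at 12.1 CPM.

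Neighbouring gene groups were counted with the same call, beside the shares of all genes with plain totals. These were 37.6% higher and 19.1% lower at day 3 against day 0, and 36.5% and 28.7% at day 5 against day 3. At day 5 against day 0 they were 49.1% and 26.0%. With TMM scaling 1519 genes were higher and 4863 lower at day 3 against day 0, and 4387 and 3155 at day 5 against day 3. List counts with TMM scaling belong beside these totals, whose share of the genes tested was not kept. Of 28 other immediate early genes, 26 reached 10 CPM at day 3 or day 0, of which 4 were higher and 13 lower at day 3 (0 and 21 with TMM scaling), with a median log2 ratio of -1.15 over all 28. Among the lower ones were DUSP2, at 0.534 CPM at day 3 and 11.9 CPM at day 0, DUSP5, at 4.65 and 76.7 CPM, and NR4A3, at 4.44 and 72.3 CPM. Not all moved that way: NR4A2, which a cAMP signal induces strongly in many cells, stood at 808 CPM at day 3 and 342 CPM at day 0, was higher by the call with plain totals but not with TMM scaling, and stood at 4.12 CPM at day 5, 196-fold lower than at day 3. At day 5 against day 3, 1 of these genes was higher, NR4A3 (37.6 CPM at day 5 and 4.44 CPM at day 3; named after its value was seen), and 19 of 22 were lower, and at day 5 against day 0, 0 were higher and 23 of 26 lower. IER3 stood at 2.77 CPM at day 5 and 616 CPM at day 3, and ZFP36, which binds AU-rich mRNA tails, at 0.334 and 29.7 CPM.

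Genes known as AP-1 targets were split at day 3. Of 16, 7 were higher and 6 lower at day 3 against day 0, or 5 and 9 with TMM scaling. The matrix metalloproteinase gene MMP3 stood at 808 CPM at day 3 and 25.8 CPM at day 0, and the cytokine LIF at 1211 and 82.2 CPM. HBEGF went the other way, at 0.962 and 83.3 CPM. At day 5 against day 3, 13 of the 13 that reached 10 CPM were lower, and 15 of 15 were lower at day 5 against day 0. MMP1 had 4 UMIs at day 5, or 0.0786 CPM, against 1113 CPM at day 3, and IL6 had 0 UMIs at day 5 against 48.3 CPM at day 0, a count of 0 that allows up to 0.0589 CPM. Fibroblast markers moved in the same comparison, with 8 of 10 lower and 0 higher at day 5 against day 3 and a median log2 ratio of -4.22; their part in these counts was not tested.

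The inputs of the pathway gave no count that stands out from all genes at day 5 against day 3. Of 15 MAP kinase and serum response factor genes at 10 CPM or more, 2 were higher and 1 lower at day 3 against day 0 (2 and 9 with TMM scaling), and 5 were higher and 5 lower at day 5 against day 3. MAPK8, a JUN kinase, stood at 343 CPM at day 5 and 56.2 CPM at day 3, and MAPK3, the kinase ERK1, at 5.28 and 25.7 CPM. Feedback genes of the MAP kinase pathway had 4 of 8 higher and 1 lower at day 3 against day 0 (1 and 3 with TMM scaling), led by SPRY1 at 331 CPM at day 3 and 9.75 CPM at day 0. At day 5 against day 3, 1 was higher and 5 of 7 lower, SPRY1 among them at 1.79 CPM. Heat shock genes, a sign of stress in handling as well as in culture, had 7 of 11 lower and 0 higher at day 3 against day 0 (11 and 0 with TMM scaling), and again 7 of 11 and 0 at day 5 against day 3 (5 of 10 and 0).

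Activity genes of neurons were mostly higher at day 5 than at day 3. Of 7 at 10 CPM or more, 5 were higher and 2 lower at day 5 against day 3. SORCS3 stood at 81.1 CPM and NPTX2 at 23.2 CPM at day 5, each with 0 UMIs at day 3, where 3 UMIs would be 0.160 CPM. The lower pair was BDNF, a secreted growth factor also made by fibroblasts, at 14.4 CPM at day 5 and 491 CPM at day 3, and INHBA at 0.903 and 451 CPM. Of the 12 other AP-1 family genes, 8 reached 10 CPM at day 3 or day 0, with 3 higher and 2 lower at day 3 (1 and 4 with TMM scaling). MAF stood at 28.1 CPM at day 3 and 0.329 CPM at day 0, and the JUN dimer repressor JDP2 at 6.47 and 45.5 CPM. At day 5 against day 3, 4 of 7 were lower and 1 higher, with MAFK at 4.50 CPM at day 5 and 211 CPM at day 3 and ATF7 at 108 and 32.5 CPM.

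Most members are compact genes. JUN, JUNB and JUND have no intron, and 7 of the 10 have under 5000 intron bases in all, where 13.7% of coding genes at 10 CPM or more on any day do; FOSL1, FOSL2 and ATF3 have 6638, 17708 and 51404. All 10 have an ATTTA pentamer in the 3′ UTR, a motif of AU-rich elements that speed mRNA decay, where 63.0% of coding genes do, and 6 have 3 or more, where 36.0% do. FOSL2 has 9 and FOS has 5. The medians by intron length are over genes at 10 CPM or more in either library compared. At day 5 over day 3 the median log2 ratio was -1.75 over genes with under 5000 intron bases, -0.78 between 5000 and 20000, and 0.99 over 20000. The same medians were 0.18, 0.11 and 0.66 at day 3 over day 0 and -1.94, -0.64 and 1.88 at day 5 over day 0. At the same limit, the median of 6 members at day 5 over day 3 was -2.65, beside -1.75 for short-intron genes as a whole. At day 3 over day 0 the median of 9 members was -1.92, beside 0.18. The part of intron counting was not tested.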

How the data were processed

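The 3 deposited matrices hold whole-number UMI counts per gene and barcode, and per the submitters' processing notes the authors made them with Cell Ranger 4.0.0 on hg38. The file headers name differing software versions. Per the labels' protocols an ATAC kit was used on nuclei at days 0 and 3, and a 3′ kit at day 5 on some 10000 cells after dissociation. Whether introns or strand were counted is not stated by the labels or headers. The day 5 matrix holds 2037119 barcodes, of which 9304 held at least 2155 UMIs and were called cells; that limit is the 99th percentile among the 10000 largest barcodes divided by 10.

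From the counts, cells with at least 500 UMIs, 300 genes and at most 20% mitochondrial UMIs were kept. Doublets were not called and were kept. UMIs of each gene were summed per library and divided by the total over the shared genes (CPM), with exact Poisson intervals. For shares of cells, each cell was thinned to 1000 UMIs, leaving out 2388, 2999 and 0 shallower cells at days 0, 3 and 5, with exact Clopper-Pearson intervals. A count of 0 allows 3 UMIs. The call rule was tested on simulated counts. Clusters used log counts per 10000, 2000 variable genes, 30 components, 15 neighbours and Leiden resolution 0.5 (scanpy 1.11.5, igraph 0.11.9). TMM factors came from edgeR 4.0.16 in R 4.3.3. Other steps used Python 3.11.15, numpy 2.4.6, scipy 1.17.1 and pandas 2.3.3, with GENCODE 29 for gene structure.

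The members and gene lists were chosen with earlier results of these data known. Named list genes are up to 4 per list and comparison with the largest absolute log2 ratio at 10 CPM or more; 1 AP-1 target gene that this rule names is not reported here. EGR2, EGR4, NR4A2 at day 3 against day 0 and NR4A3 at day 5 were added after their values were seen, and genes named for deep day 0 cells are the highest or lowest of their list. The genes most like FOS, FOSL1 and JUN are the 5 with the highest correlation among genes seen in at least 5% of thinned cells, without mitochondrial and ribosomal protein genes.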

Additional observations from a re-analysis of the deposited data

How the results depend on the processing

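No paired analysis was possible because there is 1 library per group, and for the same reason no replicate could be left out and no test made. Of 78 counts of members called under other settings, 76 stayed within 1.5 times the reported count. The other 2 concern members higher at day 3 over day 0, reported as 0. That count was 1 with the mean of per-cell CPM (JUN, log2 ratio 1.32) and 1 with a limit of 5 CPM (EGR3, 5.20-fold); the cause was not tested. No result reversed among called values. Of 330 log2 ratios of members, 197 stayed within their counting interval and 133 did not. Of 120 percentages of cells, 95 moved with the depth of thinning or the filter, and of 30 levels in the highest cluster, 24 did not move at a Leiden resolution of 1. Of 36 correlations, 30 differed by over 0.02 between thinned and deep cells. The use of deep day 0 cells only (at least 10000 UMIs), for levels and for correlations, and the removal of the cluster with the highest summed level were chosen after seeing the data. Depth limits FOSB at days 3 and 5 (8 and 23 UMIs) and EGR3 at day 5 (19 UMIs).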
